A study of Homo sapiens with 5 samples.

Results

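The genes examined were the 3 D cyclins, CCND1, CCND2 and CCND3, and the kinases that they activate, CDK4 and CDK6, 5 of the 19970 protein-coding genes of the autosomes and the X chromosome. They were chosen by name, as the genes of the enzyme that abemaciclib inhibits. Rb occupancy was read by CUT&RUN, an assay that cuts DNA out of chromatin wherever an antibody, here against Rb, has tethered a nuclease, and sequences the fragments. The cells were parental ZR-75-1, an established HR+ breast cancer cell line that expresses the oestrogen receptor. They had received DMSO or 500 nM abemaciclib for 4 days, with 2 Rb libraries in each group. A single library made with mouse IgG2a on DMSO-treated cells was the negative control. All libraries came from this 1 line, and a figure legend of the study describes the replicates of a group as separate cultures. The study's reporting summary states that this profiling was repeated independently, and the sample titles do not give the run of each library. Peak lists hold no expression values, so the identity of the line was not checked against marker genes.

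D-type cyclins bind CDK4 or CDK6, and the resulting kinases phosphorylate Rb in G1 phase. Phosphorylated Rb releases E2F transcription factors, whereas Rb that is not phosphorylated binds E2F at the promoters of cell cycle genes and holds them back. CCND1 is a well-known oestrogen-responsive gene and is often amplified in HR+ breast cancer. CDK4/6 inhibitors such as abemaciclib block this phosphorylation, and the genes described here therefore encode the kinase that lies upstream of Rb.

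For each gene, a promoter peak was one that overlapped the stretch from 2000 bp upstream to 500 bp downstream of any annotated transcription start site (TSS). Other peaks were counted when they lay in the gene body or when the gene had the protein-coding TSS nearest to the summit, which is the highest point of the peak. Positions are on GRCh38 and are counted from 1, and distances are from the TSS of the MANE transcript, the reference transcript of each gene. Pileup is the number of fragments stacked at the summit, solved from the fold enrichment and p-value of each peak. Coverage is that pileup divided by the mean coverage of the genome in the same library, so that a coverage of 1 is the average. Paired values are given for replicate 1 and then replicate 2. Intervals in brackets are exact Poisson 95% intervals of the pileup on that scale and cover counting error only.

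The lists held 1438 and 2582 Rb peaks with DMSO and 13960 and 12234 with abemaciclib. The IgG2a list held 589, of which 505 lay outside the autosomes and the X chromosome, so few could fall at any gene examined. Mean genome coverage ranged from 0.521 to 0.677 fragments over the 5 libraries, so depth differed less than the number of peaks. A peak on average background needed a pileup of 6 in either DMSO library and of 5 in either abemaciclib library. Peaks were wider with abemaciclib, with a median of 755 and 726 bp against 277 and 256 bp with DMSO.

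Sequences are given first for the sites on which the results turn. All are from GRCh38, 5′ to 3′, and none overlaps an annotated exon. At CCND1 the 2 upstream sites are shown because each also had a peak in 1 DMSO library. These are the 200 bases around the summits of abemaciclib replicate 1, on the plus strand, at chr11:69636758-69636957 for the far site and chr11:69639155-69639354 for the near site. Capitals mark an SP/KLF match (GGGCGG on the minus strand) in the far site and an E2F match (TTCGCGC) in the near site.
CCND1 far upstream site: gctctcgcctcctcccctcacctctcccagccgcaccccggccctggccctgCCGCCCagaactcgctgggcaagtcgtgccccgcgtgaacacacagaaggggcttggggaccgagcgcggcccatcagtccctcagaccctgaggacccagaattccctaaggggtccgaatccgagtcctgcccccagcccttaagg
CCND1 near upstream site: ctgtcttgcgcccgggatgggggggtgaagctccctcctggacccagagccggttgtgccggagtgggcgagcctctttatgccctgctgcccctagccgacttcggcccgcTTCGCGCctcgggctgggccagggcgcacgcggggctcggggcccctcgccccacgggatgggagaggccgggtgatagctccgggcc

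At CDK4 the 113 bases that end just before the furthest upstream of the clustered transcript starts are shown (chr12:57752448-57752560, minus strand), because this stretch lies under the summit of DMSO replicate 1. Capitals mark E-boxes (CACGTG), the sites read by MYC and related factors.
CDK4 upstream: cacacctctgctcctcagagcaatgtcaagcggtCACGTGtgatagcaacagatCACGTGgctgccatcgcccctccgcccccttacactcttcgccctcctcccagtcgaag

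At CCND3 the 250 bases before the MANE start are shown (chr6:41941809-41942058, minus strand), because all 250 lay in the strongest peak of any of the 5 genes. Capitals mark an NFY match (CCAAT).
CCND3 upstream: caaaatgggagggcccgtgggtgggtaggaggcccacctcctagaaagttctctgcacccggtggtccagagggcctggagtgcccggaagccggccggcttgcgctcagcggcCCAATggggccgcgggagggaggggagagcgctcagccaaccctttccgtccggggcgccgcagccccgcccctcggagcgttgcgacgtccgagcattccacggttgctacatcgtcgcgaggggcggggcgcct

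At CDK6 both the site with a peak and the promoter without one are shown. The first is the part of the summit window of abemaciclib replicate 1 that is outside exons, 141 bases of an intron (chr7:92833691-92833831, minus strand), and it held none of the motifs searched. The second is the RefSeq promoter of the GRCh38.p14 annotation, 250 bases before the MANE start (chr7:92836574-92836823, minus strand), with no letters in capitals.
CDK6 intronic site: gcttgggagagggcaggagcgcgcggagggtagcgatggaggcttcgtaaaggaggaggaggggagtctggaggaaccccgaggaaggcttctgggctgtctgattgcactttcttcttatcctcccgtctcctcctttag
CDK6 upstream: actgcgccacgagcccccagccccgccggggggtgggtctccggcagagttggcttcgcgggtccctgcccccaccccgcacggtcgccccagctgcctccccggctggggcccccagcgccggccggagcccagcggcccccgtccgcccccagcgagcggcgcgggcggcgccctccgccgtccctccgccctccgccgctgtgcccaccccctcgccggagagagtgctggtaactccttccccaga

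The first comparison asked at which of these genes a promoter peak was called with each treatment. With abemaciclib, 4 of the 5 genes had a promoter peak in both libraries: CCND1, CCND3, CDK4 and CDK6. With DMSO, CDK4 alone had one in both libraries, CCND1 had one in replicate 1, and CCND3 and CDK6 had none. CCND2 had no peak in any library. IgG2a gave no peak at any of the 5 genes, and a promoter peak at 0.0300% of all coding genes.

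These counts were read against all 19970 coding genes. Single libraries had a promoter peak at 7.86% and 12.4% of them with DMSO and at 58.0% and 53.9% with abemaciclib. Both abemaciclib libraries had one at 52.7%, against 4 of 5 genes here. Both DMSO libraries had one at 6.41%, against 1 of 5, and all 4 Rb libraries at the same 6.41%, the class of CDK4. Promoters with a peak in each abemaciclib library but none with DMSO, called gained below, made up 38.9% of coding genes and 2 of the 5, CCND3 and CDK6. CCND1 belonged to the 7.39% with peaks in both abemaciclib libraries and in 1 DMSO library, and CCND2 to the 40.7% with no promoter peak in any Rb library. With 5 genes, each class held 1 or 2, and no class is set apart from all coding genes by such counts.

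**Figure D1:**
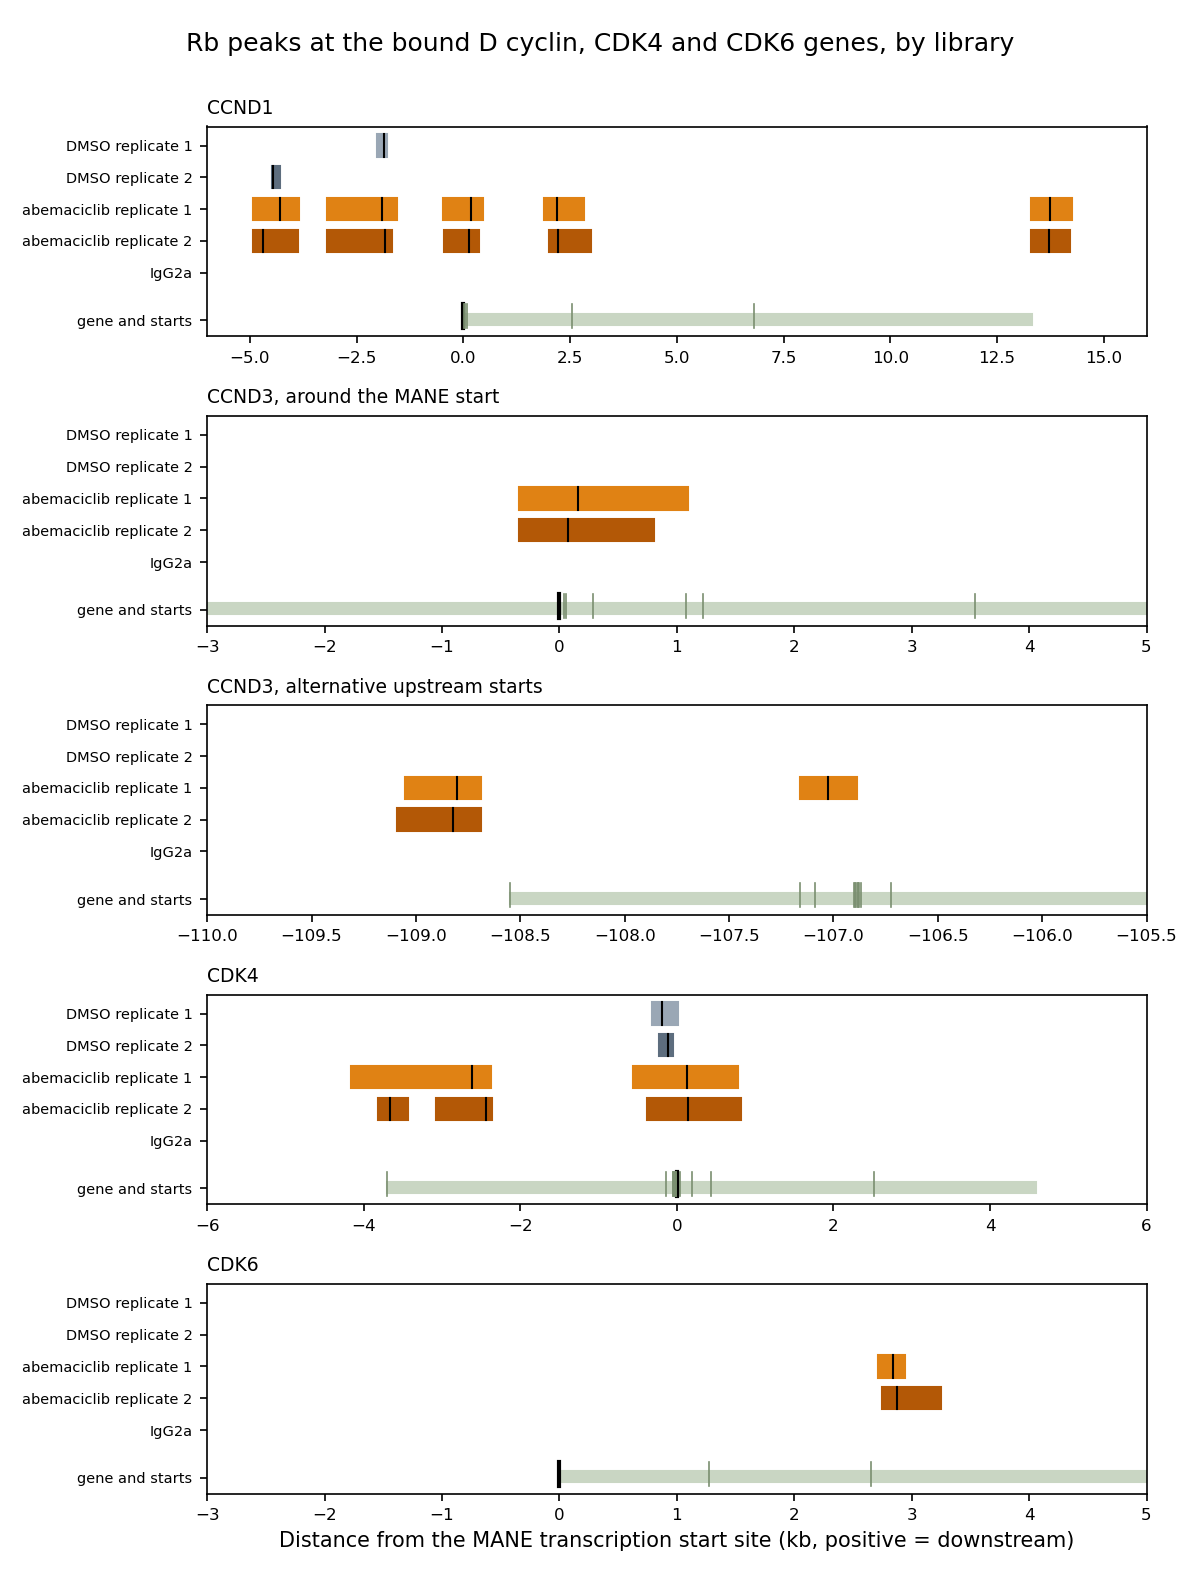
Rb peaks at the 4 bound genes, 1 row per library, against the distance from the MANE TSS in kb, positive downstream. Coloured boxes span called peaks, black ticks are summits, green bars are genes, thin ticks are annotated starts and the thick tick is the MANE start. The DMSO rows hold 2 short peaks at CCND1 and 2 at CDK4, the abemaciclib rows hold 11 peaks each, and the IgG2a rows are empty.

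Summed over the 5 genes, peaks numbered 2 in each DMSO library and 11 in each abemaciclib library. They covered 556 and 371 bp with DMSO and 10987 and 9648 bp with abemaciclib. The means were 464 ± 131 bp and 10318 ± 947 bp (SD, n = 2), a ratio of 22.3, and every abemaciclib library lay above every DMSO library. The size of this ratio depended on the threshold: it was 4.65 with equal numbers of strongest peaks from each list and 87.5 at a q-value of at most 1e-05. With 2 libraries against 2 the exact two-sided permutation test gave p = 0.333, the smallest value that this design allows, which holds for every comparison between treatments below. Peaks outside promoters numbered 0 and 1 with DMSO and 2 and 3 with abemaciclib.

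CCND1 encodes cyclin D1, the main D-type cyclin of breast epithelium, and lies on chromosome 11 at chr11:69641156-69654474, plus strand. It had the largest number of peaks of the 5 genes, 5 in each abemaciclib library against 1 in each DMSO library. Covered sequence was 223 and 192 bp with DMSO and 5546 and 5276 bp with abemaciclib, or 208 ± 21.9 against 5411 ± 191 bp (SD, n = 2), a ratio of 26.1. The 5 sites were in the same places in both abemaciclib libraries, with 72.5% to 98.3% of their joint length called in both.

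The near upstream site, whose printed sequence holds an E2F match, was the one promoter site of CCND1 with a DMSO peak. E2F matches were not particular to this site, as the motif counts below show. In DMSO replicate 1 it spanned 223 bp with the summit 1851 bp before the TSS, a pileup of 15 and a coverage of 23.1 (12.9 to 38.1). The abemaciclib peaks at chr11:69637967-69639592 had summits 1901 and 1842 bp before the TSS and coverages of 90.0 (68.5 to 116) and 97.8 (72.8 to 129). The 3 summits lay close together, while the coverage interval in DMSO replicate 1 did not overlap either abemaciclib interval. DMSO replicate 2 had no peak here, where a call would have needed a coverage of 14.8 at the background seen with abemaciclib. The abemaciclib mean was 93.9 ± 5.56 (SD, n = 2).

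The far upstream site, intergenic and outside the promoter, showed the reverse pattern in the DMSO libraries. DMSO replicate 2 had a 192-bp peak with the summit 4463 bp before the TSS, a pileup of 11 and a coverage of 16.2 (8.11 to 29.1), and DMSO replicate 1 had none. The abemaciclib peaks at chr11:69636231-69637300 had coverages of 108 (84.6 to 137) and 88.2 (64.6 to 118), with summits 4298 and 4688 bp before the TSS. In abemaciclib replicate 1 this was the strongest CCND1 peak, at rank 1743 of 13960 by p-value, while in replicate 2 the near site was stronger. The summits of the abemaciclib replicates were 390 bp apart here, against 7 to 59 bp at the other 4 sites. Each DMSO library thus had 1 of the 2 upstream peaks, at a rank of 658 of 1438 for the near site and 2288 of 2582 for the far site.

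Around the CCND1 start itself, at chr11:69640685-69641627, only the abemaciclib libraries had a peak. Coverages were 48.8 (33.4 to 68.9) and 40.3 (24.9 to 61.6), with summits 179 and 141 bp after the TSS, in the first exon. This was less than at either upstream site: the mean of 44.5 ± 6.02 compares with 93.9 ± 5.56 at the near site (SD, n = 2). In both libraries the cyclin D1 start was therefore not where Rb coverage was highest. A further intronic site at chr11:69643034-69644152, which lies in the window of an internal start 2556 bp downstream, had coverages of 48.8 (33.4 to 68.9) and 30.7 (17.5 to 49.8).

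The last site, at chr11:69654452-69655411, overlapped the final 23 bp of CCND1 in replicate 1 and 20 bp in replicate 2. Its summits were in an intron of LTO1, whose TSS was the nearest, 3544 and 3551 bp away. Coverages were 86.9 (65.8 to 113) and 78.7 (56.4 to 107), close to those of the upstream sites. Neither DMSO library had a peak at this site, where a call needed a coverage of 16.9 and 16.2 at the background seen with abemaciclib. Such limits are approximate. At the far upstream site DMSO replicate 2 had a peak with a coverage of 16.2, where the same rule asked for 17.7.

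The CCND1 locus also had a raised local background, the level against which the peak caller tested each peak. It was 2.75 to 5.23 times the genome mean at the CCND1 peaks of the abemaciclib libraries, and 2.93 and 3.11 times at the DMSO peaks. Over all peaks within 1 Mb of the gene the median was 3.46 times (25 peaks) in abemaciclib replicate 1 and 3.74 times (19 peaks) in replicate 2, against 1.38 and 1.37 over the whole lists. The raised level thus extended over the neighbourhood in these lists. The peak caller used IgG controls, and the 1 IgG2a library here is from DMSO-treated cells, so the lists do not give this level separately for abemaciclib-treated cells. Its part in the coverage at CCND1 was not tested. At CDK4 the background was 1.63 to 2.24 times the genome mean, and at the CCND3 and CDK6 peaks it was 1.00 times.

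**Figure D2:**
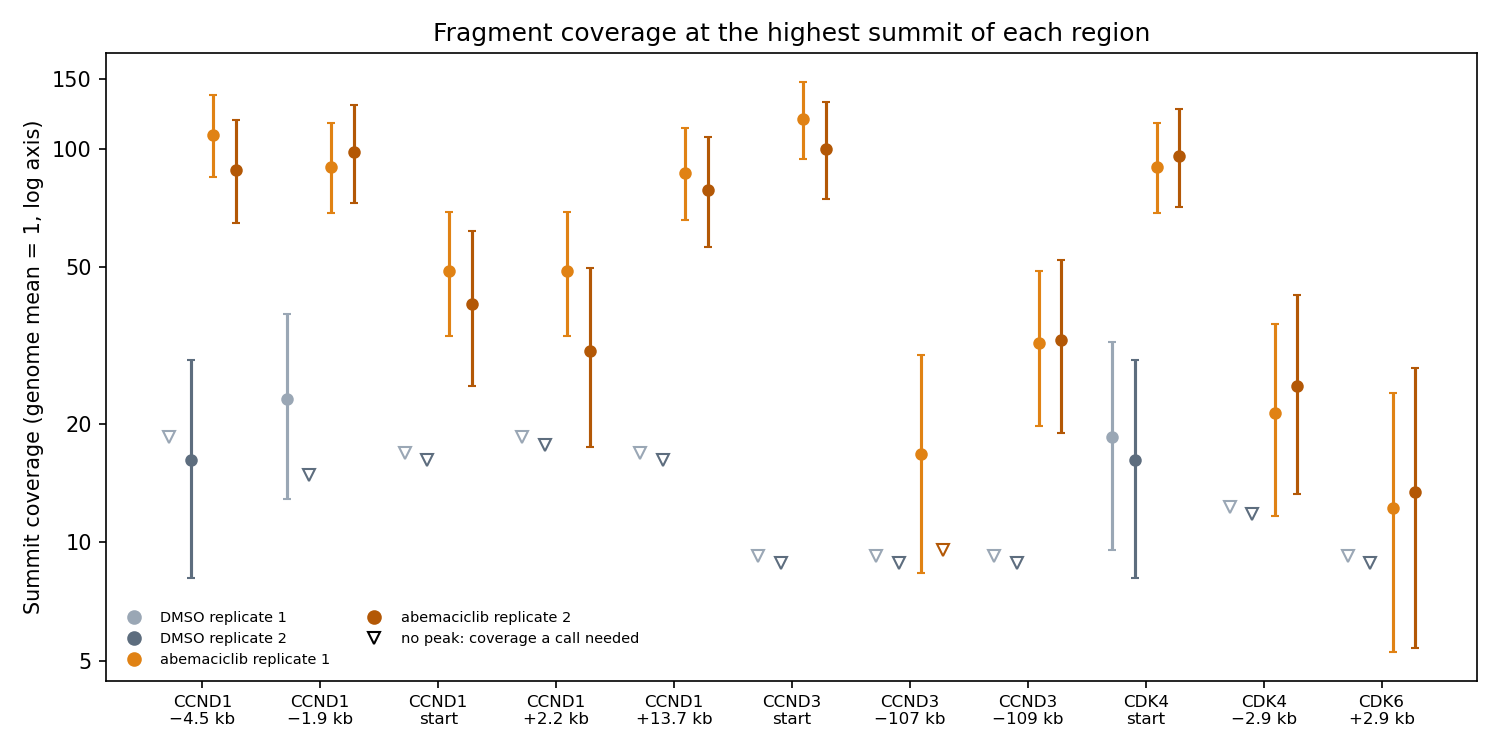
Fragment coverage at the highest summit of each of the 11 regions, on a log axis with the genome mean at 1, for the 4 Rb libraries; bars are exact Poisson 95% intervals. Open triangles mark, for libraries without a peak, the coverage that a call would have needed at the background seen with abemaciclib. The abemaciclib points at the CCND3 start, both upstream CCND1 sites, the site past the CCND1 3′ end and the CDK4 start lie between 78.7 and 119.

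CCND3, which encodes cyclin D3, the D-type cyclin used most by lymphoid cells, lies at chr6:41934934-42050357 on the minus strand. It had the strongest peak of the 5 genes, at its MANE start, with abemaciclib and none there with DMSO. The peaks, within chr6:41940715-41942155, had a pileup of 78 and a coverage of 119 (94.0 to 148) in abemaciclib replicate 1, and a pileup of 52 and a coverage of 99.8 (74.5 to 131) in replicate 2. Both summits were in the first exon, 160 and 73 bp after the TSS. They ranked 906 of 13960 and 1139 of 12234 by p-value, and 9.41% and 12.8% of the coding genes bound in those libraries had a better promoter peak.

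At the CCND3 start the abemaciclib coverage lay far above the limit for a DMSO call. Background there was at the genome mean in the abemaciclib libraries. At that background a pileup of 6 would have sufficed, a coverage of 9.24 and 8.86 in DMSO replicates 1 and 2. The abemaciclib mean of 109 ± 13.6 (SD, n = 2) was 11.8 times the higher of these. The level in the DMSO libraries below that limit is not known from peak lists, and the nearest DMSO summits were 988 and 599 kb away.

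CCND3 has a second group of annotated starts (positions −106726 to −108549 from the MANE start), beside TAF8, which encodes a subunit of the general transcription factor TFIID. Rb peaks there were much lower. A site at chr6:42050498-42050900, whose nearest coding start was that of TAF8, had coverages of 32.0 (19.8 to 49.0) and 32.6 (19.0 to 52.2) in the abemaciclib libraries. A site over the alternative CCND3 starts, at chr6:42048693-42048969, had a peak in abemaciclib replicate 1 alone, with a pileup of 11 and a coverage of 16.8 (8.37 to 30.0). No DMSO library had a peak at either site, and both overlapped a TAF8 promoter window, so their reads cannot be divided between CCND3 and TAF8.

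CDK4, the kinase partner that most cell types use with D cyclins, lies at chr12:57747727-57756013 on the minus strand. It was the one gene of the 5 with a promoter peak in all 4 Rb libraries, which allows its level to be compared directly. Coverage at the summit was 18.5 (9.55 to 32.3) and 16.2 (8.11 to 29.1) with DMSO, from pileups of 12 and 11. It was 90.0 (68.5 to 116) and 95.9 (71.2 to 126) with abemaciclib, from pileups of 59 and 50. The groups did not overlap, and the means of 17.4 ± 1.58 and 92.9 ± 4.21 (SD, n = 2) differed 5.35-fold, with ratios of single libraries from 4.87 to 5.90 (exact permutation p = 0.333). The same ratio was not computed for the other genes bound in all 4 libraries, so it is not shown to be particular to CDK4.

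The CDK4 promoter peak was also wider with abemaciclib. It spanned 333 and 179 bp with DMSO and 1347 and 1210 bp with abemaciclib, or 256 ± 109 against 1278 ± 96.9 bp (SD, n = 2, ratio 4.99). The summit differed in place. With DMSO it was 191 and 111 bp before the TSS, over the E-box stretch printed above or just beside it, and with abemaciclib it was 131 and 148 bp after the TSS, in the first exon or the intron next to it.

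The distance between a DMSO and an abemaciclib summit at CDK4 was 242 to 339 bp, while the replicates of a group lay 80 bp apart with DMSO and 17 bp apart with abemaciclib. Over all peaks that matched one to one between a DMSO and an abemaciclib library, 1337 to 2122 pairs, the median distance was 57.0 to 65.0 bp, and 5.31% to 10.6% were as far apart as at CDK4. This comparison of summits was made after the CDK4 values were seen, and it describes these lists. A DMSO summit rests on 11 or 12 fragments, so its place has an error that the lists do not give.

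Within its own list, the best promoter peak of CDK4 ranked 709 of 1438 and 1495 of 2582 with DMSO and 2069 of 13960 and 1671 of 12234 with abemaciclib. The share of bound coding genes with a better promoter peak was 50.7% and 63.9% with DMSO and 20.8% and 18.4% with abemaciclib, and for CCND1 it was 46.6% in DMSO replicate 1 and 25.4% and 22.1% with abemaciclib. The lists differ in length, so these places describe each list and were not compared between treatments.

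Abemaciclib libraries also had peaks at the 5′ end of the longest CDK4 transcript, which faces MARCHF9, a gene for a membrane-bound ubiquitin ligase. Replicate 1 had 1 peak at chr12:57754687-57756473 with a coverage of 21.3 (11.7 to 35.8). Replicate 2 had 2 in its place, at chr12:57754667-57755387 and chr12:57755743-57756127, with coverages of 24.9 (13.3 to 42.6) and 15.3 (6.63 to 30.2). All overlapped the MARCHF9 promoter, so these weak peaks cannot be assigned to CDK4 alone.

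CDK6, the kinase partner prominent in blood cells, lies at chr7:92604921-92836573 on the minus strand and is the longest of the 5 genes. Its single site had the lowest coverage of the 11 regions. It was called with abemaciclib only, within chr7:92833322-92833860, 185 and 219 bp downstream of an alternative start that lies 2656 bp inside the gene. Pileups were 8 and 7, and coverages were 12.2 (5.27 to 24.0) and 13.4 (5.40 to 27.7). The 228-bp and 508-bp peaks shared 197 bp, or 36.5% of their joint length, the least of the 10 regions called in both replicates.

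No library had a peak at the MANE start of CDK6, where the 250 bases printed above hold 30 CpG, more than 87.8% of RefSeq promoters. At the background seen with abemaciclib, a DMSO call at the intronic site needed a coverage of 9.24 or 8.86. The abemaciclib mean of 12.8 ± 0.869 (SD, n = 2) was 1.39 times the higher limit. The Poisson intervals of both abemaciclib peaks reach below that limit. The DMSO level at the site is not known, so the lists do not show whether coverage differed from DMSO or by how much. The call that the site was gained rests on 7 or 8 fragments in each abemaciclib library. It ranked 11236 of 13960 and 10278 of 12234, and 90.5% and 91.2% of bound coding genes had a better promoter peak.

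CCND2, which encodes cyclin D2, lies at chr12:4269771-4305353 on the plus strand. No peak overlapped it, and none had it as the nearest coding gene. The nearest summits were 265 kb from its MANE start in both DMSO libraries and 34.2 and 47.1 kb away in abemaciclib replicates 1 and 2. Background at peaks within 1 Mb was 2.14 and 2.09 times the genome mean in the abemaciclib libraries (8 and 6 peaks), and the level at CCND2 itself is not given by the lists. Absence of a peak does not show absence of Rb.

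Set in order of the mean abemaciclib coverage of its best site, CCND3 stood first with 109 ± 13.6, followed by the CCND1 far site with 98.3 ± 14.2, the CCND1 near site with 93.9 ± 5.56 and the CDK4 start with 92.9 ± 4.21 (SD, n = 2). The Poisson intervals of neighbours in this order overlapped in each library, so CCND3, CCND1 and CDK4 were not told apart on this scale, which leaves out local background. Fold enrichment over local background was 47.7 and 34.8 at the CCND3 start and 26.5 and 25.6 at the CDK4 start. It was 25.7 and 12.6 at the CCND1 far site and 20.8 and 20.7 at the near site. No intervals were computed for these folds. In coverage CDK6, with 12.8 ± 0.869, lay below the best sites of CCND3, CCND1 and CDK4 in both libraries, and its intervals did not overlap theirs. CCND2 had no value.

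**Figure D3:**
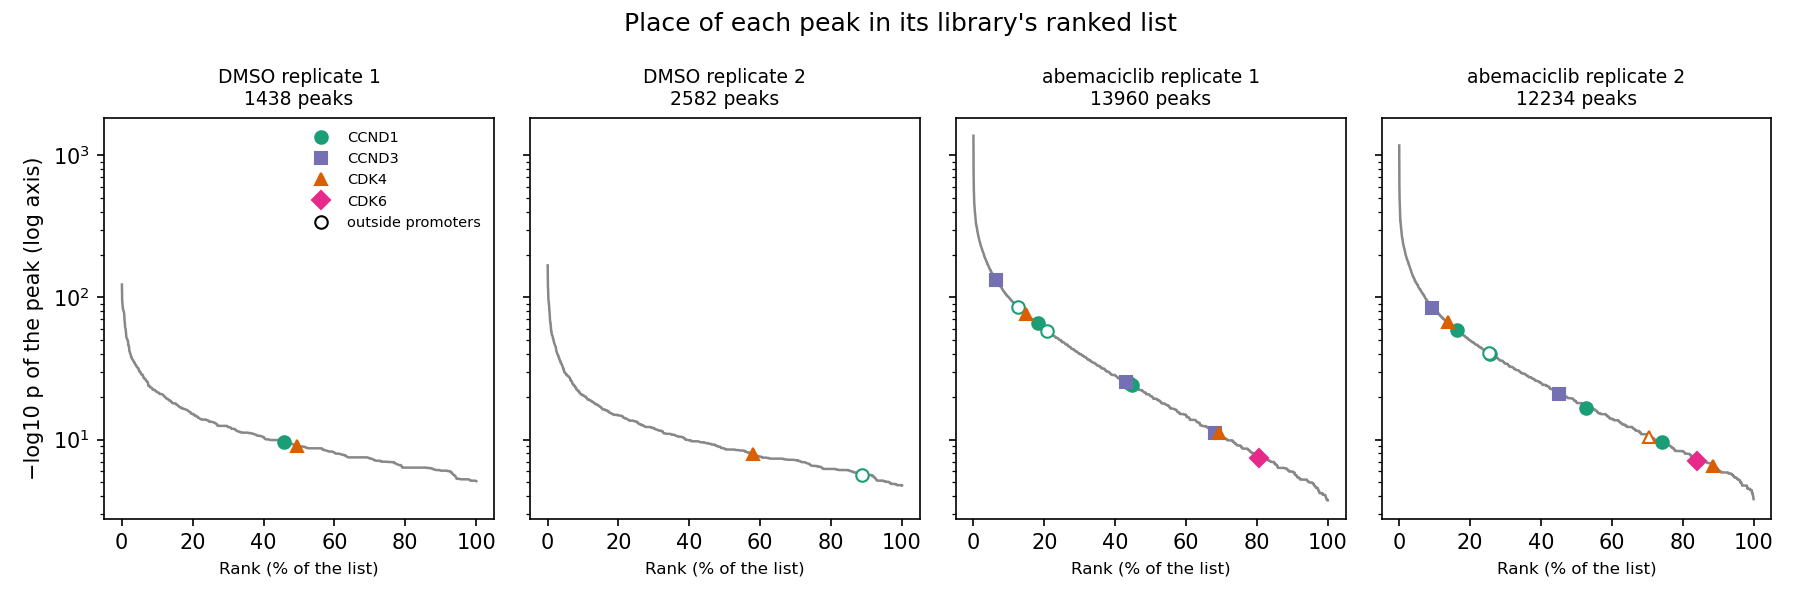
The −log10 p of every peak on a log axis against its rank as a percent of the list, 1 panel per Rb library, with the peaks of the 4 bound genes marked; open symbols are peaks outside promoters. The CCND3 peak is the leftmost mark in both abemaciclib panels, at 6.49% and 9.31%, and the CDK6 peak is at 80.5% and 84.0%.

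Genes with the most similar pattern were sought as those with promoter peaks in the same libraries and the nearest rank percentiles. For CDK4, among 1280 other genes bound in all 4 libraries, they were PRRC2B, TCOF1 and SOS2, at distances of 4.47, 6.82 and 6.92 percentile points. For CCND1, among 286 genes over 3 libraries, they were DHPS and a gene without a symbol that shares its peak, both at 2.50 points, and PPP2R5D at 3.87. For CCND3, among 7758 genes over 2 libraries, they were SLC25A51, FUT8 and JADE2, within 0.876 points. For CDK6, 16 genes had identical percentiles, TTC26, WDR25 and TTC30A among them, because weak peaks share a few pileup values.

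Motifs were sought as exact matches on both strands in the 200-bp windows around the 26 summits assigned to the 5 genes in the Rb libraries. For E2F, the factors that Rb binds at the promoters of cell cycle genes, the search took the letters TTCCCGC. As variants of the core it took the letters TTGGCGC and also the letters TTCGCGC and, last, the letters TTGCCGC. An E2F match was present in 6 of the 26 windows. In abemaciclib replicate 1 a match was in 1 of 11 windows, the near upstream site of CCND1, against 16.9% of all windows of that list. In replicate 2 it was in 3 of 11, at the same site, at the intronic site of CCND1 and at the CDK4 start, against 17.4%.

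The DMSO windows held E2F at CCND1 in both libraries, 1 of 2 windows each, against 29.3% and 25.4% of the DMSO lists. The near upstream match was in the window of all 3 libraries with a peak there. Over the full CCND1 regions, E2F matches numbered 2 at the far upstream site and 1 at the near one. They numbered 1 at the start, 2 at the intronic site and 0 at the 3′ site. At CDK4, the full region of 1386 bp under the promoter peaks held 1 E2F match, 4 NFY matches (CCAAT), 2 AP-1 matches (TGACTCA, or with the other middle base TGAGTCA) and 6 SP/KLF matches (GGGCGG). The 1441-bp CCND3 region held no E2F match, 2 NFY matches and 9 SP/KLF matches, and the 539-bp CDK6 region held 3 SP/KLF matches alone.

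SP/KLF matches, which occur in CpG-rich promoters at large, were in 6 of 11 windows of abemaciclib replicate 1 and 4 of 11 of replicate 2, against 56.2% and 57.4% of all windows. The oestrogen response element, the palindromic site of the oestrogen receptor, was matched at none of the 26 summits and in none of the 11 regions, and at 1 of 13835 windows of abemaciclib replicate 1. CHR (TTTGAA), NFY, AP-1, CRE (TGACGTCA) and forkhead (TGTTTAC) had no match in any of the 26 windows. NFY was matched in 18.4% and 19.4% of all windows of the abemaciclib lists and in 30.0% and 28.8% of those of the DMSO lists, and CRE in under 1% of each. CHR matches did occur elsewhere in the CCND1 regions, 2 of them in the region of the start.

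E-boxes (CACGTG) were added to the search after the sequences were seen. The 250 bases before the CDK4 start held 3, at positions −216, −196 and −101 from the start, and 6.49% of 27305 RefSeq promoter stretches of that length held at least 1. Windows of both DMSO summits at CDK4 held E-boxes, 4 and 2 of them, and windows of both abemaciclib summits at the CDK4 start held none. Over all windows, 4.90% and 5.56% held an E-box in the DMSO lists and 4.66% and 4.78% in the abemaciclib lists. This difference is one of summit position only. Both abemaciclib peaks at the CDK4 start spanned the whole printed stretch, and the full 1386-bp region held 5 E-boxes. At CCND3 the NFY match printed in capitals began at position −136, and 33.0% of RefSeq stretches held an NFY match, with 42.3% holding SP/KLF and 11.0% holding E2F. RefSeq promoters were matched for 3 of the 5 genes, CCND3, CDK4 and CDK6, and that of CCND3 belongs to an alternative upstream start.

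The sites differed in CpG content, which is high at most active promoters. The CDK6 windows held 10 and 8 CpG in 200 bases and the CCND1 3′ site 8 in each library, against a median of 18.0 over all windows of either abemaciclib list. At the CCND3 start they held 26 and 33, and at the CDK4 start 19 and 18. The CCND1 sites from the near upstream site to the intron held 16 to 29, the far upstream site 13 and 12, and the 3 windows on the MARCHF9 side of CDK4 from 3 to 17. At the far upstream site the window of DMSO replicate 2 held 33. A window covers only part of a site, and full regions gave a different picture for CDK6. Its full region held 56 CpG in 539 bp, against 35 in 960 bp at the CCND1 3′ site and 89 in 1070 bp at the far upstream site.

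A list of 35 genes with textbook roles beside CDK4 and CDK6 was examined by the same rule. Of these, 30 had a promoter peak in both abemaciclib libraries, 9 in all 4 Rb libraries and 14 were gained. As shares of the list, 25.7% were bound in all 4 and 40.0% were gained, against 6.41% and 38.9% of coding genes. The list was chosen with earlier results of these data known, and it was given no test. Its bound genes had a median rank percentile of 28.6 and 23.4 in abemaciclib replicates 1 and 2, against 37.9 and 40.0 over all bound coding genes.

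**Figure D4:**
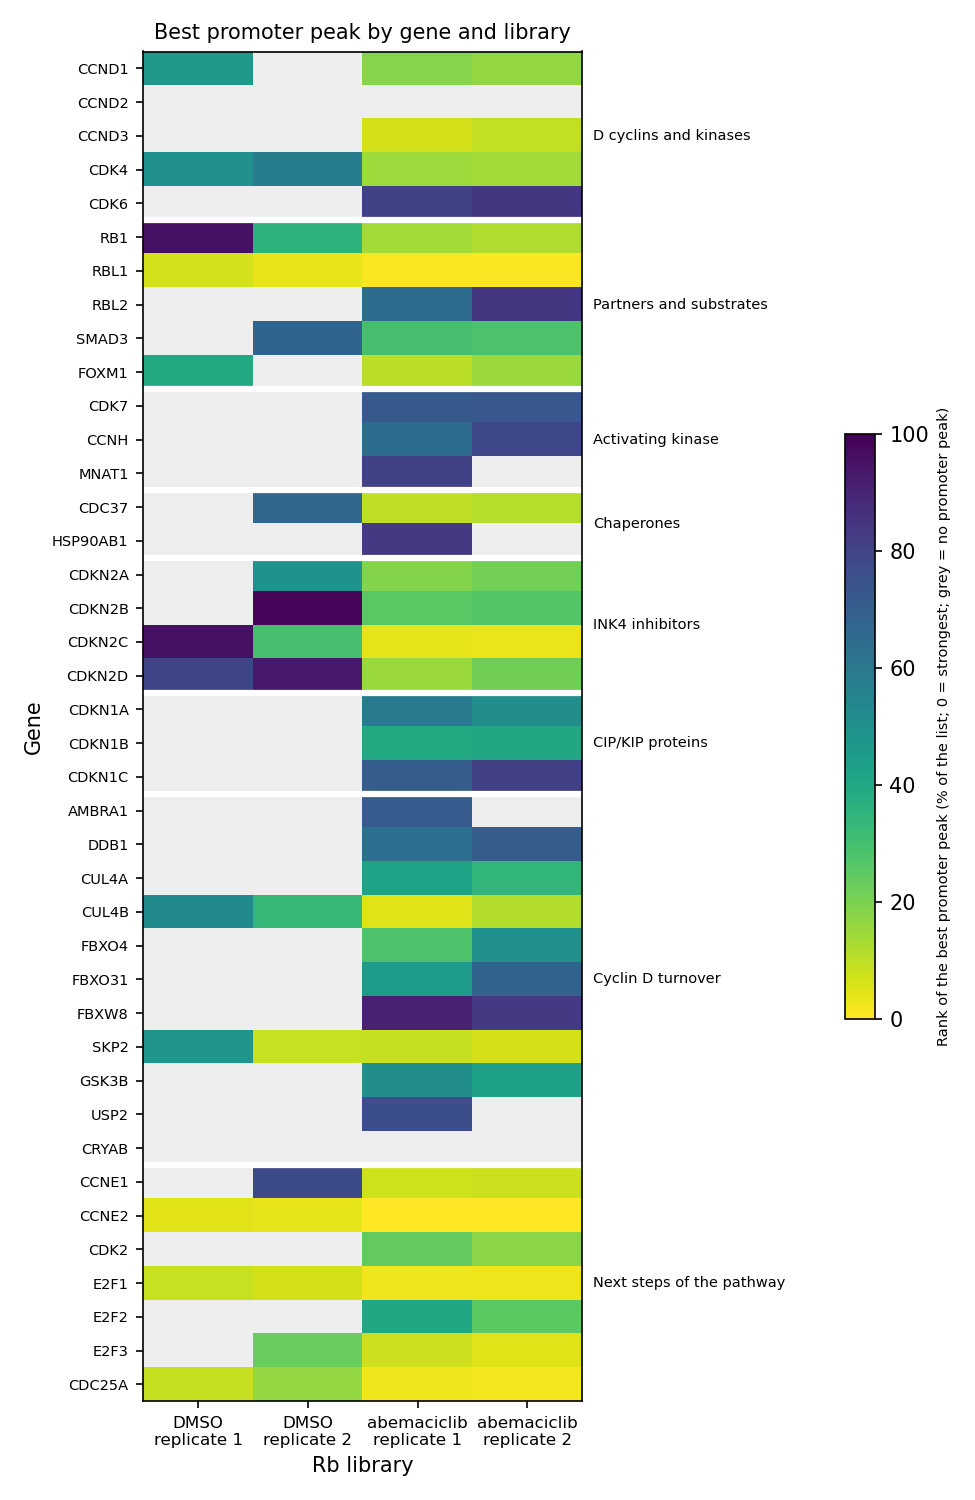
Rank of the best promoter peak of each gene as a percent of its library's list, with 0 the strongest and grey for no promoter peak, for the D cyclins and kinases and 35 pathway genes in 4 Rb libraries. CCND2 and CRYAB are grey throughout, and CCNE2, RBL1, E2F1 and CDC25A are at most 2.63 in both abemaciclib libraries.

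Among substrates and partners, RB1 and RBL1 were bound in all 4 libraries and RBL2 was gained. RBL1, which encodes the Rb relative p107, ranked 153 of 13960 and 81 of 12234 with abemaciclib and 100 of 1438 and 87 of 2582 with DMSO. RB1 itself ranked 1942 and 1456 with abemaciclib, close to CDK4. RBL2, which encodes the Rb relative p130, was far weaker, at 9026 and 10278.

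Of the inhibitors of these kinases, the INK4 genes, whose proteins bind CDK4 and CDK6 themselves, all had peaks in at least 1 DMSO library and both abemaciclib libraries, and CDKN2C and CDKN2D were bound in all 4. CDKN2C, which encodes p18, ranked 535 and 367 with abemaciclib. The CIP/KIP genes CDKN1A, CDKN1B and CDKN1C, whose proteins bind a broader range of cyclin complexes, were all gained. CDKN2A and CDKN2B, which had a DMSO peak in replicate 2 only, are neighbours on chromosome 9. Of all coding genes, 6.41% had a promoter peak in all 4 Rb libraries and 7.39% in both abemaciclib libraries and 1 DMSO library, while 38.9% were gained. With 4 and 3 genes, no difference between the families was tested.

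Of the genes of the activating kinase, CDK7 and CCNH were gained. Of 11 genes of cyclin D turnover, CUL4B and SKP2 were bound in all 4 libraries, and DDB1, CUL4A, FBXO4, FBXO31, FBXW8 and GSK3B were gained. CRYAB was the one pathway gene with no promoter peak in any Rb library. CUL4B, which encodes a ubiquitin ligase scaffold, ranked 669 and 1400 with abemaciclib.

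CCNE2, which encodes cyclin E2, ranked 28 of 13960 and 34 of 12234 with abemaciclib and 63 of 1438 and 91 of 2582 with DMSO. E2F1 ranked 294 and 322 with abemaciclib, and CDC25A, the phosphatase that activates CDK2, ranked 351 and 234. These 3 genes were bound in all 4 libraries, whereas CDK2 and E2F2 were gained. CCNE2, E2F1 and CDC25A ranked ahead of the CCND3 peak, the best of the 5 genes examined, in both abemaciclib libraries, and CDK2 and E2F2 ranked behind it. CCNE1 (993 and 915) and E2F3 (1063 and 612) ranked behind it in replicate 1 and ahead of it in replicate 2.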

How the data were processed

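Rb CUT&RUN and IgG2a peak lists of ZR-75-1 cells were analysed. After BBDuk trimming of the paired reads, the authors used Bowtie2 2.3.4.1 against GRCh38, removed mitochondrial and blacklisted reads, kept duplicates, and called peaks in each library with MACS2 2.2.7.1 at a q-value of 0.05 against IgG. The deposited lists give a fold enrichment (a ratio of pileup plus 1 to local background plus 1), the −log10 of p- and q-values, a display score that was not used, and the summit offset. Folds depend on depth and were compared only within a list.

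Whole-number pileups and backgrounds were solved from fold and p (tolerance 0.002 in −log10 p), and 100% of peaks were resolved; the solver was tested on simulated data. The lowest recurrent background was taken as the mean genome coverage, 0.521 to 0.677. Peaks were matched to GENCODE 44 and RefSeq promoter sequences with Python 3.11.15, pandas 2.3.3 and scipy 1.17.1. Groups came from sample titles and were compared by exact two-sided permutation tests over libraries. Peak lists hold no counts over common regions, so no count model was fitted. Genes and lists were chosen with earlier results of these data known. Every peak of the 5 genes is named, with the 3 genes nearest to each in pattern, genes sharing a promoter peak, and pathway genes by role. Alternative thresholds, windows, transcript sets and left-out libraries were tried.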

Additional observations from a re-analysis of the deposited data

How the results depend on the processing

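In all, 111 alternative values were computed for 16 results. By the range set for each result, 87 stayed the same and 24 moved. A change of direction was defined only for the difference in peaks outside promoters, the ratio of covered sequence and the ratio at CDK4. None of these changed direction, although the difference in peaks outside promoters fell to 0 in 1 setting. With an equal number of strongest peaks from each list (1438), the genes with a promoter peak in both abemaciclib libraries fell from 4 to 1, those in both DMSO libraries from 1 to 0, gained genes from 2 to 1, gained pathway genes from 14 to 2, the difference in peaks outside promoters from 2.00 to 0 and the ratio of covered sequence from 22.3 to 4.65. CCND3 was the gene that stayed. At a q-value of at most 1e-05, no gene was bound in both DMSO libraries (0), 4 pathway genes instead of 9 were bound in all 4 libraries, the covered ratio was 87.5, and CDK6 had no promoter peak in either abemaciclib library. The count of gained genes was still 2 at that q-value, but its genes changed. They were CCND3 and CDK4, whose DMSO peaks did not pass. With MANE starts alone, an alternative chosen after the data were seen, 1 gene was gained, since the CDK6 peak was not in that window. With basic transcripts alone, the difference in peaks outside promoters was 4.00. Leaving out 1 library at a time gave 1 to 2 genes for both DMSO libraries, the 2 without DMSO replicate 2 being CCND1 and CDK4, and 9 to 15 pathway genes bound in all libraries, with 15 without DMSO replicate 1. The 5.35-fold difference at CDK4 stayed between 5.03 and 5.72. With a promoter from 1000 bp upstream to 100 bp downstream, the best CCND1 rank moved from 18.1% and 16.4% to 43.9% and 52.8% of the abemaciclib lists, the near upstream site being outside that window. The causes were not tested beyond these constructions. With the replicate number as a block, an alternative chosen after the data were seen, the geometric mean of the within-number ratios was 22.7 for covered sequence and 5.36 for CDK4 coverage; the exact two-sided sign-flip test over 2 pairs gave p = 0.5, the smallest it can give. Whether the numbers pair the samples cannot be judged from 2 pairs. The lists hold only sites with a pileup of at least 6 with DMSO and 5 with abemaciclib. The CDK6 pileups of 8 and 7 were above the limit of 5.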
